A study of Homo sapiens with 4 samples.

Results

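Notch signaling was examined in Caco-2 cells, a human line from a colorectal carcinoma that often serves as a model of the intestinal epithelium, through 10 genes chosen by symbol: the receptors NOTCH1, NOTCH2 and NOTCH3, the ligands JAG1, JAG2 and DLL1, the target genes HES1, HES4 and HEY1, and the secretory lineage factor ATOH1. Of these 10 genes, 9 had a row among the 37515 genes counted and 8 passed the filter on low counts that left 14820 genes for testing. HEY1 was counted but too low to test, and ATOH1 was not analysed here. Transcript levels came from RNA-seq of 2 groups, all of whose libraries are labelled WT. Both grew for 15 days in transwells before treatment. One group was left unstimulated (0 h, 2 libraries), and the other received 60 ng/ml IFNγ in the basal compartment for 3 h (2 libraries). Because the control cells were collected at 0 h, the effect of IFNγ and of the 3 h that passed cannot be told apart. Nothing in the labels states that the duplicates came from separate cultures, so the p-values measure the spread between these libraries, which may be technical.

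Notch is a receptor that is read out by contact between neighboring cells. A Jagged or Delta ligand on one cell binds the receptor on the next, ADAM proteases and γ-secretase then cut the receptor, and its freed intracellular domain enters the nucleus, where it joins the DNA-binding protein RBPJ and a Mastermind coactivator on genes such as HES1. In the intestinal crypt, HES1 represses ATOH1, and cells with active Notch take the absorptive fate whereas cells that express ATOH1 become secretory.

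After 3 h of IFNγ, JAG1 rose 2.58-fold and was the only called gene among the 8 tested. The receptors NOTCH1, NOTCH2 and NOTCH3, the other ligands JAG2 and DLL1 and the targets HES1 and HES4 did not pass the test. To be called, a gene needed an adjusted p-value (Benjamini-Hochberg, over all tested genes) under 0.05 together with a log2 fold change beyond 1 in either direction. By this rule 7.28% of all tested genes were called, with 2.88% of the tested genes higher and 4.4% lower, against 1 of the 8 Notch genes called higher and 0 lower. By edgeR's quasi-likelihood test 2 of the 8, JAG1 and NOTCH1, had an unadjusted p-value under 0.05, as did 35.4% of all tested genes. The median log2 fold change was 0.034 over the 8 and -0.00735 over all tested genes.

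The promoters of the targets HES1, HES4 and HEYL carry the short sequence that RBPJ recognizes within the window shown here, and that of JAG1 does not. The 250 bases before the annotated start are shown for these 4 genes from RefSeq (GRCh38.p14, 5′ to 3′ along the gene). Of the 10 genes, HES1 and HES4 are the tested targets and JAG1 is the gene called higher. HEYL, a further target outside the 10, was called higher too. The targets HES6 and NRARP were also tested, and their windows are not shown. Capitals mark the RBPJ core TGGGAA and the N-box CACNAG, which is bound by HES proteins, on either strand.
HES1 chr3:194135898-194136147 (+ strand): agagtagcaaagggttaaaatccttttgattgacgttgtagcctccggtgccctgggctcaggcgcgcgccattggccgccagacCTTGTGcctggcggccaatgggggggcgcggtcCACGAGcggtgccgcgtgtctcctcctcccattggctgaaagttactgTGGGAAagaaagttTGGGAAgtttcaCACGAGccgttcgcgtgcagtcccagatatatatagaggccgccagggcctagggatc
HES4 chr1:1000098-1000347 (- strand): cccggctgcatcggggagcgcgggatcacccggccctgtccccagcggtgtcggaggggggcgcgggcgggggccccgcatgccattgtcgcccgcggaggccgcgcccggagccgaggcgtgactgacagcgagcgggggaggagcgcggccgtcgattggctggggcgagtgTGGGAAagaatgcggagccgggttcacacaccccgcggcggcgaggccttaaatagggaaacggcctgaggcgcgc
HEYL chr1:39639644-39639893 (- strand): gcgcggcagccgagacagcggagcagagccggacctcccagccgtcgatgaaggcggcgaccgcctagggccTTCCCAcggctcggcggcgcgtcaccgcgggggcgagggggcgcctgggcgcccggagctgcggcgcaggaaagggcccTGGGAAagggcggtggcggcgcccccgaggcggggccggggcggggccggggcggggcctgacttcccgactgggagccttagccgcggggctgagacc
JAG1 chr20:10674000-10674249 (- strand): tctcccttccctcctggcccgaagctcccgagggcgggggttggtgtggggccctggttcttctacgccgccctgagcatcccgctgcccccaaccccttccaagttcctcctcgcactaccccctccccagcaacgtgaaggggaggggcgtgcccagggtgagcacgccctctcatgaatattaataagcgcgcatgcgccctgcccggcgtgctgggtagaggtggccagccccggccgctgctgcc
In HES1 the RBPJ core occurred 2 times on the same strand, from 84 to 79 and from 70 to 65 bases before the start, and the N-box 3 times. HES4 had 1 RBPJ core, from 76 to 71 bases before the start, and 0 N-boxes. HEYL had 2 cores, on opposite strands. The core was not a constant feature of the family, since HES5 also had 2, HES3 and HEY2 had 1 each, and HES2, HES6, HES7 and NRARP had 0. JAG1 had 0 matches to either motif, and 0 to the interferon-response core (GAAA, any 2 bases, GAAA). Of 34788 distinct promoter windows of this length, 20.8% held the RBPJ core, 2.88% held it 2 or more times, 32% held the N-box and 3.02% the interferon-response core. The 2 motifs did not overlap each other in these windows. Windows were found for 8 of the 10 genes. A match to these letters is a description and not a measurement of binding, and sites farther from the start were not searched.

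Levels are given as CPM, which are read counts scaled to a common library size, with TMM factors. The libraries held 7171455 to 10365346 counts, so before the TMM factors 1 CPM stood for 7.17 to 10.4 reads. Genes with few reads were measured with less precision than deep ones. A list of 12 IFNγ-induced genes served to check the labels, and of its 10 tested genes 9 were called higher and 0 lower. CIITA and IDO1 were too low to test, and IDO1 had 1 and 2 counts before and 2 and 0 after. Some tested genes, such as CXCL9 with 0 and 0 counts before and 22 and 11 after, passed the filter only through the IFNγ libraries. The 15 enterocyte and epithelial markers summed to 12924 to 13802 CPM in unstimulated cells and 14959 to 15483 CPM after IFNγ, and among them CDX2 was called higher and SI lower. Markers of other cell types were detected at lower levels. They summed to 2.34 to 2.52 CPM before and 1.91 to 2.43 CPM after for leukocytes, 1.26 to 1.85 and 1.85 to 2.32 CPM for endothelium, where KDR and TEK were at 0, 21.2 to 21.6 and 24.1 to 30.2 CPM for myeloid cells, and 111 to 206 and 140 to 182 CPM for fibroblasts, and their part in the Notch values was not tested. Goblet cell markers summed to 319 to 390 CPM before and 336 to 368 CPM after, although CLCA1 was at 0 in every library. Of the 6 goblet markers listed, 5 had a row and 3 were tested. Crypt stem cell markers summed to 9.74 to 10.2 CPM before and 13.4 to 14.9 CPM after, and of their 2 tested genes 0 were called. The sums were 6.62 to 7.01 and 6.03 to 7.50 CPM for Paneth cells, 2.10 to 2.73 and 2.32 to 2.43 CPM for enteroendocrine cells, and 2.52 to 3.31 and 2.82 to 3.00 CPM for tuft cells, with DEFA5, CHGA, GCG and DCLK1 at 0 in every library. The log2 fold change of all tested genes rose with the GC content of their exons (Spearman rho = 0.447 across 14518 genes, which are not independent replicates). When a trend of GC content and exon length was removed from each library, 350 genes were called higher and 300 lower, against 427 and 652 without that step. Values with the trend removed are therefore given beside the genes they move, and the part of GC content in these values was not tested further.

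Among the ligands, JAG1 (ENSG00000101384, GRCh37 chromosome 20, 10618332 to 10654647, minus strand) encodes Jagged1, a membrane-bound ligand of the Notch receptors. Its counts were 581 and 405 without stimulation and 1376 and 1164 after IFNγ. These were 56.6 and 56.7 CPM before, and 134 and 159 CPM after. Both IFNγ libraries thus stood well above both unstimulated ones, which differed little from each other. The level went from 56.7 ± 0.119 (SD, n = 2) to 146 ± 17.7 (SD, n = 2) CPM, or 1.37 on the log2 scale with a standard error of 0.13 (95% interval 1.06 to 1.67, adjusted p = 0.00145 in the edgeR test). Leaving out 1 library at a time gave 1.22 to 1.47, and with the GC and length trend removed it was 1.36. The exons of JAG1 share 306 bases with an antisense gene, ENSG00000270792, which had at most 3 counts in any library.

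JAG2 (ENSG00000184916, chromosome 14, 105607319 to 105635161, minus strand) encodes the second Jagged ligand. It had 20.3 and 16.3 CPM in unstimulated cells and 20.2 and 20.1 CPM after IFNγ. The conditions overlapped, since the highest and the lowest value both came from unstimulated cells. Its log2 fold change was 0.14 (95% interval -0.27 to 0.54, adjusted p = 0.619 from edgeR), so the data place its change between a 0.831-fold and a 1.45-fold level. The direction was not stable, as it was -0.084 with the GC and length trend removed. On the same strand 469 exon bases overlap ENSG00000257622, which was not analysed here.

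DLL1 (ENSG00000198719, chromosome 6, 170591294 to 170615653, minus strand) encodes a Delta ligand, which in the crypt is found on secretory cells. It had 57 and 25 counts in unstimulated cells and 53 and 39 after IFNγ, or 5.55 and 3.50 CPM before and 5.16 and 5.32 CPM after. The IFNγ libraries lay between the unstimulated ones. At this depth the log2 fold change of 0.19 had a wide 95% interval, from -0.54 to 0.92 (adjusted p = 0.709 from edgeR). It turned to -0.075 with the trend removed and, leaving out 1 library at a time, lay between -0.085 and 0.58. The exons share 370 bases with FAM120B on the other strand, which had 278 and 195 counts before and 398 and 305 after. The sources used here do not give the strand setting of the counting, so reads in that stretch cannot be assigned to one of the pair.

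Because JAG1 and JAG2 are counted in the same library, their ratio does not depend on scaling between libraries. A trend with GC content, which was 49.0% for JAG1 and 64.2% for JAG2, does not cancel in it. JAG1 had 2.79 and 3.49 reads for each read of JAG2 in unstimulated cells, and 6.62 and 7.92 after IFNγ. Per kilobase of exon, JAG1 made up 56.8% and 63.8% of the sum of JAG1, JAG2 and DLL1 before and 76.1% and 79.0% after. The makeup of these ligands therefore did not overlap between conditions in either measure. Non-overlap was common, since the CPM of 62.4% of all tested genes did not overlap either. Other Delta ligands were not part of this makeup. The exact two-sided permutation test of the JAG1 to JAG2 ratio gave p = 0.333, which is the smallest value that 2 against 2 libraries can give. The per-kilobase sum of the 3 ligands was 10.7 and 9.56 CPM per kb in unstimulated cells and 18.9 and 21.6 CPM per kb after IFNγ.

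**Figure D1:**
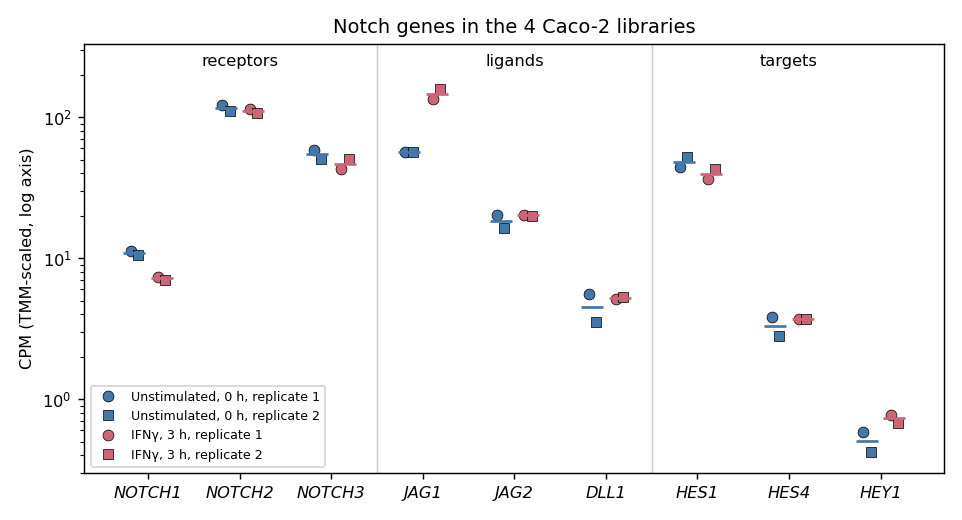
TMM-scaled CPM (log axis) of the 9 counted Notch genes in each of the 4 libraries, with unstimulated cells in blue, IFNγ-stimulated cells in red, circles for replicate 1, squares for replicate 2 and a bar at the mean of each condition. JAG1 stands at 56.6 and 56.7 CPM before and 134 and 159 CPM after IFNγ, and NOTCH1 at 11.3 and 10.5 CPM before and 7.39 and 6.96 CPM after.

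Of the receptors, NOTCH1 (ENSG00000148400, chromosome 9, 139388885 to 139440500, minus strand) is a main receptor of the intestinal crypt. It had 116 and 75 counts in unstimulated cells and 76 and 51 after IFNγ, which were 11.3 and 10.5 CPM before and 7.39 and 6.96 CPM after. Both IFNγ libraries were lower than both unstimulated ones. NOTCH1 had a log2 fold change of -0.60 (standard error 0.21, 95% interval -1.08 to -0.12), with an unadjusted p-value of 0.0207 and an adjusted p of 0.0789 from edgeR, so it did not pass the test over all genes. The value was -0.75 with the GC and length trend removed. Tested genes within 2 percentage points of its GC content of 63.2% had a median log2 fold change of 0.22, the opposite direction. Its ratio to NOTCH2, which needs no scaling between libraries, was 0.0929 and 0.0947 before and 0.0644 and 0.0650 after. The exact two-sided permutation p for this ratio was 0.333, again the smallest possible.

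NOTCH2 (ENSG00000134250, chromosome 1, 120454176 to 120643366, minus strand), the second crypt receptor, had the most reads of the 3 receptors. It stood at 122 and 111 CPM in unstimulated cells and 115 and 107 CPM after IFNγ. The conditions overlapped. Its log2 fold change was -0.068 (95% interval -0.34 to 0.21, adjusted p = 0.718 from edgeR) and turned to 0.10 with the trend removed, and the interval leaves room for a level between 0.789-fold and 1.15-fold. Near-identical partial copies of NOTCH2, the NOTCH2NL genes, lie on the same chromosome. Their reads could be split with NOTCH2 or lost, so this value is uncertain to that extent.

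NOTCH3 (ENSG00000074181, chromosome 19, 15269849 to 15311806, minus strand) is a receptor best known from vascular smooth muscle, and it was well detected in these epithelial cells. It had 58.9 and 50.4 CPM in unstimulated cells and 42.7 and 50.2 CPM after IFNγ. The second library of each condition differed by little, and the groups only just failed to overlap. On the log2 scale the change was -0.24 (95% interval -0.59 to 0.11, adjusted p = 0.292 from edgeR), and -0.41 with the trend removed. Per kilobase of exon, NOTCH2 made up 50.3% to 57.2% of the 3 receptors in the 4 libraries, NOTCH3 37.9% to 43.4% and NOTCH1 4.52% to 6.54%.

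HES1 (ENSG00000114315, chromosome 3, 193853937 to 193856521, plus strand) encodes the repressor through which Notch restrains secretory fate. Its promoter window shown above held 2 matches to the RBPJ core, as did that of HEYL. It had 458 and 370 counts in unstimulated cells and 377 and 314 after IFNγ, or 44.6 and 51.8 CPM before and 36.7 and 42.8 CPM after. The IFNγ values were lower, although the higher of them was close to the lower unstimulated one. For HES1 the log2 fold change was -0.28 (standard error 0.15, 95% interval -0.63 to 0.073, adjusted p = 0.232 from edgeR). With the GC and length trend removed it was -0.49 with an adjusted p of 0.0393 from edgeR, still under the fold change threshold. The interval without that step reaches up to a 1.05-fold level.

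HES4 (ENSG00000188290, chromosome 1, 934342 to 935552, minus strand), a related repressor, had 39 and 20 counts in unstimulated cells and 38 and 27 after IFNγ. These were 3.80 and 2.80 CPM before and 3.70 and 3.68 CPM after, with the IFNγ libraries inside the unstimulated range. Few genes lie near its GC content of 73.8%, with 12 tested genes, HES4 included, within 2 percentage points. The trend is therefore less certain there. Its log2 fold change was 0.14 (95% interval -0.60 to 0.89, adjusted p = 0.782 from edgeR) and -0.19 with the trend removed, so neither a direction nor the absence of a moderate change is shown at this depth. HEY1 (ENSG00000164683, chromosome 8, 80674606 to 80680092, minus strand), a further repressor of the family, had 6 and 3 counts in unstimulated cells and 8 and 5 after IFNγ. A change in HEY1 was not detectable at this depth.

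Of the 8 tested genes, JAG1 had both IFNγ libraries above both unstimulated libraries, and NOTCH1, NOTCH3 and HES1 had both below. Non-overlap of this kind was common, since 31.6% of all tested genes did not overlap in the higher direction and 30.8% in the lower. The count of 1 higher and 3 lower is read against those shares. In bulk RNA, fewer cells that express a gene and less RNA per cell cannot be told apart.

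**Figure D2:**
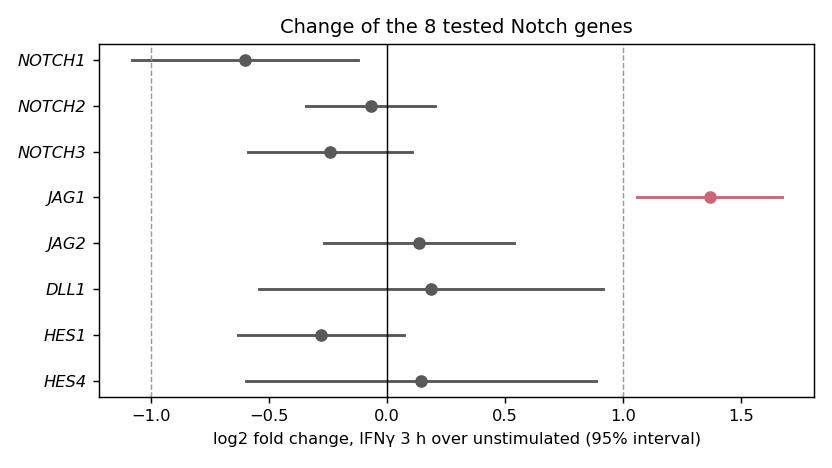
The log2 fold change (IFNγ 3 h over unstimulated) of the 8 tested Notch genes is shown as a point with its 95% interval from edgeR's quasi-likelihood fit, not adjusted for the number of genes, and dashed lines stand at the fold change threshold of 1 in either direction. The interval of JAG1 (red, called) runs from 1.06 to 1.67, that of NOTCH1 from -1.08 to -0.12, and those of the other 6 genes include 0.

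**Figure D3:**
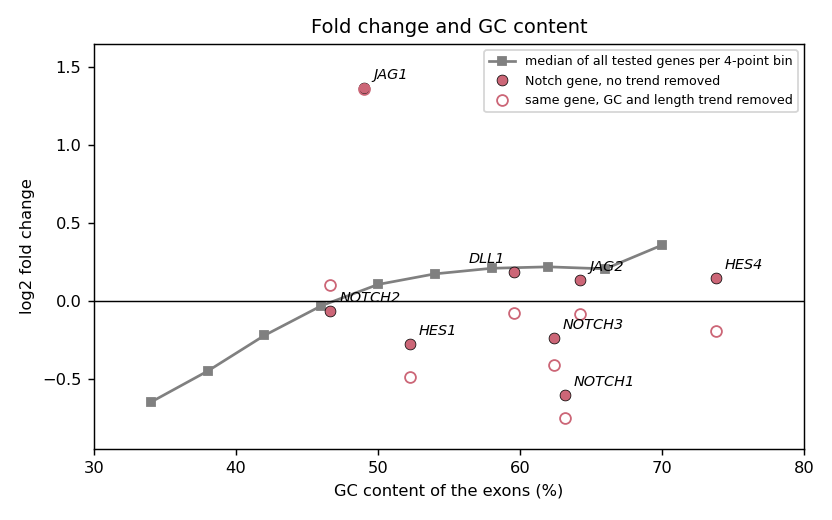
The log2 fold change of each tested Notch gene (filled as fitted, open with the GC and length trend removed) is plotted against the GC content of its exons in percent, with the median of all tested genes per bin of 4 percentage points as a gray line. JAG1 moves from 1.37 to 1.36, NOTCH1 and HES1 move further below 0, and NOTCH2, JAG2, DLL1 and HES4 change sign.

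Levels of different genes were compared per kilobase of exon. In unstimulated cells HES1 was the highest, at 23.4 ± 2.49 (SD, n = 2) CPM per kb. NOTCH2 followed at 6.95 ± 0.450 (SD, n = 2), then JAG1 at 6.09 ± 0.0128 (SD, n = 2) and NOTCH3 at 5.81 ± 0.637 (SD, n = 2) CPM per kb, and the last pair overlapped. HES4 at 2.95 ± 0.630 (SD, n = 2) and JAG2 at 2.85 ± 0.442 (SD, n = 2) CPM per kb could not be ordered either. DLL1 stood at 1.19 ± 0.379 (SD, n = 2), NOTCH1 at 0.870 ± 0.0444 (SD, n = 2) and HEY1 at 0.0915 ± 0.0211 (SD, n = 2) CPM per kb. After IFNγ, JAG1 reached 15.7 ± 1.90 (SD, n = 2) CPM per kb, above every receptor and second to HES1 at 19.3 ± 2.12 (SD, n = 2). These lengths count all annotated exons of a gene, so genes with long alternative exons are placed too low.

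A wider list of 77 pathway genes, grouped by role, was read from the same fit. Of these, 73 had a row, 61 were tested, 4 were called higher and 1 lower, and 12 had an adjusted p-value under 0.05 without the fold change threshold, 5 higher and 7 lower. Over all tested genes 2.88% were called higher and 4.4% lower, and by adjusted p-value alone the shares were 9.02% higher and 11% lower. The counts of the role groups below stand beside these same shares. The median log2 fold change of the 61 was 0.12. With the GC and length trend removed, 3 were called higher and 0 lower.

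Of 6 other receptors and ligands listed, 2 were tested and 0 were called. Among the other HES and HEY genes and NRARP, 3 of 8 were tested and 1 was called higher. HEYL, a repressor of the HEY family, had 17 and 16 counts before and 56 and 62 after IFNγ, or 1.66 and 2.24 CPM before and 5.45 and 8.46 CPM after. On the log2 scale HEYL rose by 1.84 ± 0.37 (standard error), with an adjusted p of 0.0137 in the edgeR test. It was 1.61 with an adjusted p of 0.0551 without the first unstimulated library, where it was no longer called, and 1.59 with the trend removed. HES2, HES3, HES5, HES7 and HEY2 had at most 6 counts in any library and were not tested. HES1 and HEYL, each with 2 RBPJ cores in the window shown above, thus had log2 fold changes of -0.28 and 1.84, and the difference between them was not tested.

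Among RBPJ and its coactivators, all 9 genes were tested, 0 were called higher and 1 was called lower. MAML2, a Mastermind coactivator, fell from 36.5 and 31.0 CPM to 17.8 and 14.1 CPM, which was -1.08 ± 0.18 (standard error) on the log2 scale, with an adjusted p of 0.00741 in the edgeR test. The call rests near the fold change threshold, since the value was -0.96 with the trend removed, -0.95 without the first unstimulated library and -0.95 without the second IFNγ library. RBPJ itself had 107 and 95.7 CPM before and 53.4 and 52.8 CPM after. Its log2 fold change of -0.93 had an adjusted p of 0.00363 from edgeR but did not reach the fold change threshold, and it was -0.44 with an adjusted p of 0.0504 once the trend was removed. Without the second unstimulated library it was -1.01 with an adjusted p of 0.00769 in the edgeR test and was called. RBPJ has a GC content of 39.9%, and tested genes within 2 percentage points of it had a median log2 fold change of -0.34. Among 13 corepressor genes 0 were called. CIR1, a corepressor that binds RBPJ, changed by -0.71 on the log2 scale (adjusted p = 0.0294 in the edgeR test), under the fold change threshold, and by -0.37 with an adjusted p of 0.167 with the trend removed.

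Of 5 glycosylation enzymes that modify the receptors, 1 was called. LFNG, the Fringe enzyme that adds a sugar to Notch and shifts its preference toward Delta over Jagged ligands, rose from 5.65 and 6.30 CPM to 13.2 and 17.5 CPM. LFNG thus stood higher by 1.36 ± 0.23 (standard error) on the log2 scale, with an adjusted p of 0.00761 in the edgeR test, and by 1.08 with the trend removed. It was called with each library left out in turn.

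Of 9 genes for receptor cleavage 0 were called. FURIN, the convertase that cuts the receptor during its maturation, had 100 and 108 CPM before and 170 and 180 CPM after. FURIN was therefore at 0.75 on the log2 scale (adjusted p = 0.00542 in the edgeR test), under the fold change threshold, and at 0.50 with the trend removed. ADAM10, the protease of the ligand-dependent cut, was at -0.50 on the log2 scale (adjusted p = 0.0228 in the edgeR test), which turned to 0.19 with the trend removed.

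Of 14 genes for ligand and receptor endocytosis and turnover, 13 were tested and 0 called. MIB1, the ubiquitin ligase that activates ligands by their endocytosis, had 150 and 147 CPM before and 83.4 and 77.2 CPM after. MIB1 was thus at -0.89 on the log2 scale (adjusted p = 0.0034 from edgeR), just under the fold change threshold, and -0.40 with an adjusted p of 0.0393 with the trend removed. The ubiquitin ligases ITCH and NEDD4, with log2 fold changes of -0.55 and -0.51 and adjusted p-values of 0.0147 and 0.0249 from edgeR, were at -0.14 and -0.021 with the trend removed.

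The secretory lineage factors, the side of the pathway on which ATOH1 lies, gave 7 tested genes of 13 listed. Of these, 2 were called higher and 0 lower, beside 2.88% higher and 4.4% lower of all tested genes. KLF4, a factor of differentiated epithelium that is needed for goblet cell maturation, rose from 7.98 and 7.71 CPM to 34.0 and 32.5 CPM. This was 2.08 ± 0.16 (standard error) on the log2 scale, with an adjusted p of 0.0007 in the edgeR test. SOX9, a crypt factor needed for Paneth cells, rose from 45.1 and 55.3 to 95.6 and 113 CPM, or by 1.06 on the log2 scale (adjusted p = 0.00464 in the edgeR test). It was 0.87 with the trend removed and 0.91 without the first unstimulated or without the second IFNγ library, under the fold change threshold in each case. SPDEF, NEUROG3, NEUROD1, PAX4 and POU2F3, which act in goblet, enteroendocrine or tuft cells, had at most 2 counts in any library.

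**Figure D4:**
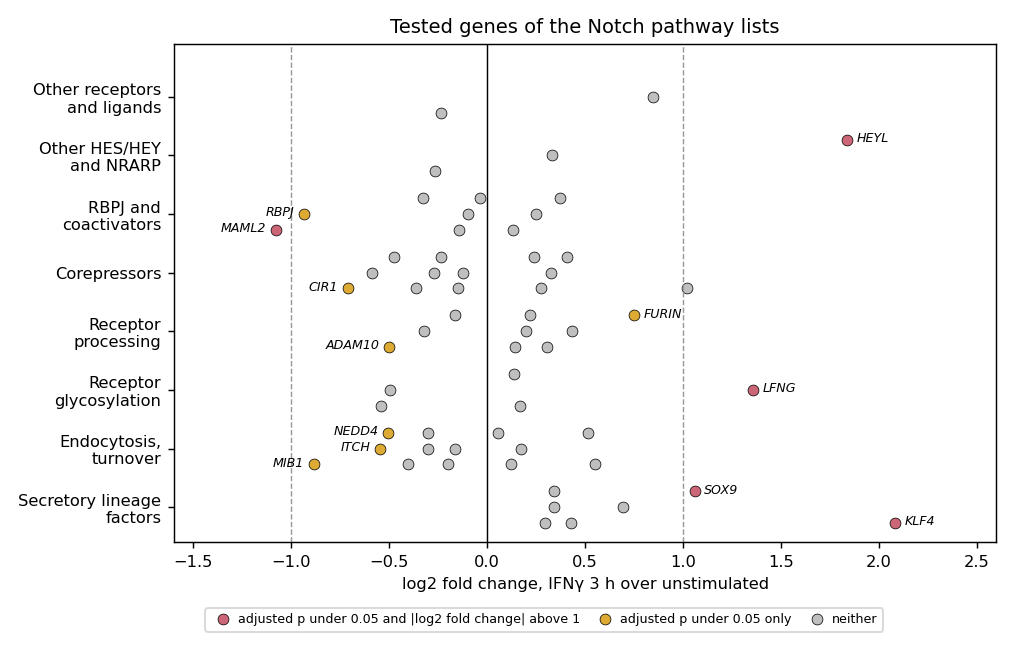
Each point is the log2 fold change (IFNγ 3 h over unstimulated) of 1 of the 61 tested pathway genes, placed by role, with called genes in red, genes past the adjusted p-value alone in yellow and the others in gray. HEYL, LFNG, SOX9 and KLF4 lie beyond the upper threshold and MAML2 beyond the lower one, while RBPJ (-0.93) and MIB1 (-0.89) stop short of it and a gray corepressor at 1.02 did not pass the adjusted p-value.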

How the data were processed

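RNA-seq libraries were made from 1 µg of total RNA of Caco-2 cells, 2 unstimulated and 2 stimulated with IFNγ. The values are unnormalized read counts for Ensembl genes, deposited by the authors with a column for each library and no pooling. The submitters' processing notes name HISAT 0.5.1 and HTSeq 0.6.1p1, while the genome build, annotation and strand setting are not given in the sources used here. Counting that ignores strand or drops shared reads would affect overlapping and near-identical genes. Libraries were grouped by their titles.

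Symbols came from a GENCODE 44 table mapped to GRCh37, which paired 96.5% of the identifiers, and gave positions, exon lengths and GC content, not necessarily as used for counting. NOTCH2NL matched no identifier under that symbol. Counts were tested with edgeR 4.0.16 (R 4.3.3): default filter on low counts, TMM scaling, quasi-likelihood test, no block, and adjustment over all 14820 genes. Standard errors were the log2 fold change over the square root of F. Replicates of a condition differed by more than counting noise (chi-square per degree of freedom 7.38 and 8.44). Precision was limited by 2 libraries per condition.

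The alternatives were other scalings, DESeq2 1.42.0, no filter, at least 10 counts in every library, the replicate block, a loess trend of GC content and length removed (span 0.5), each library left out and other thresholds. The fits were tested on simulated data. All 10 genes are named, with those pathway genes whose adjusted p-value was under 0.05. HES2, HES3, HES5, HES7, HEY2, HES6 and NRARP (promoters) and the low secretory factors are named outside this rule, after their values were seen. So are CIITA, IDO1 and CXCL9 (label check). The 10 genes and the lists were chosen with earlier results of these data known.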

Additional observations from a re-analysis of the deposited data

How the results depend on the processing

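The call of JAG1 held under every alternative run, with log2 fold changes from 1.32 to 1.41, and from 1.22 to 1.47 with each library left out. The number of Notch genes called was 1 throughout. With the GC and length trend removed, the values of NOTCH2 (0.10), JAG2 (-0.084), DLL1 (-0.075), HES4 (-0.19) and the pathway gene ADAM10 (0.19) changed sign. With the replicate block added to that step they were 0.099, -0.090, -0.082, -0.20 and 0.18. With each library left out, NOTCH2 ran from -0.13 to 0.00033, JAG2 from -0.0075 to 0.31, DLL1 from -0.085 to 0.58 and HES4 from -0.041 to 0.40. None of these values was called.

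Removing the trend left 650 genes called, 300 lower, and 3 pathway genes called with 0 lower, also 0 lower with the block added. By adjusted p-value alone the number called was 2963 (1337 higher, 1626 lower), among them 12 pathway genes, 7 lower. At an adjusted p-value of 0.01 the numbers were 686 and 382 lower. With each library left out 866 to 1684 genes were called, 504 to 1239 of them lower, and 2 to 6 pathway genes, 2 to 5 higher and 0 to 2 lower. Beyond that construction the cause was not tested.

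Replicate numbers are not stated to mark a shared culture. For each gene, the 2 libraries of a condition lie equally far above and below their average. The correlation of these distances between same-numbered libraries (r = 0.415) is therefore the same for both pairs, which are not separate evidence. This correlation was taken across genes, which are not independent replicates. With the replicate block 1388 genes were called against 1079, and the adjusted p-value of NOTCH1 from edgeR was 0.037, still under the fold change threshold. With the block and the trend removed together, NOTCH1 (-0.75, adjusted p = 0.0109), NOTCH3 (-0.43, adjusted p = 0.0139), HES1 (-0.49, adjusted p = 0.00443) and RBPJ (-0.45, adjusted p = 0.00682) were under 0.05 in the edgeR test and under the fold change threshold. Other settings moved the members the other way. DESeq2 gave adjusted p-values of 0.270 for NOTCH1, 0.452 for NOTCH3 and 0.384 for HES1. Without the filter on low counts, the edgeR test gave 0.125, 0.546 and 0.434 in the same order. RBPJ was under 0.05 in both. DLL1, HES4 and HEY1 had at most 57 counts in a library, which limits what could be detected.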
